A study of Mus musculus with 2 samples.

Results

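Small RNA from whole mouse heart at embryonic day 12.5 was examined for 6 microRNA genes that are known from white blood cells: Mir142, Mir223, Mir155, Mir146 (also named Mir146a), Mir150 and Mir146b. They were taken by symbol, through their Ensembl identifiers in GENCODE M21, and all 6 had a row among the 1973 microRNA gene rows of the tables, that of Mir142b serving for Mir142. Reads of Mir142 were taken from the strand opposite to the row of Mir142b, because GENCODE M21 places Mir142 there, within the bounds of Mir142b. The series holds 1 group of 2 libraries, biological replicates 1 and 2, made from RNA under 30 bases. The embryos were of the B6NCrl strain with both sexes pooled, and no transgene, deletion or treatment is named in the labels. The labels give both tissue samples the same donor entry and do not say how many hearts were pooled in each, so the spread between the replicates may be partly technical. With no second group there is no contrast between conditions, and the questions are at what levels the heart held these microRNAs and how closely the libraries matched in them.

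A microRNA is cut from a hairpin transcript into a mature strand of about the length of the reads measured here, which guides Argonaute proteins to messenger RNAs that pair with its seed, the bases 2 to 8 from its 5′ end. The genes described here are active in different blood lineages. Mir142 is used in nearly all blood cell lineages, Mir223 is best known from myeloid cells such as neutrophils and macrophages, and Mir155 and Mir146 are induced in activated immune cells, where Mir146 dampens NF-kB signalling. Mir150 is a microRNA of mature lymphocytes, and Mir146b is a second gene of the Mir146 family. In the heart of this stage, macrophages from the yolk sac are known to settle, and blood remains in the chambers and vessels.

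Mature sequences from the RefSeq table of GRCm38.p6 were compared for what sets the reads of these genes apart, with the seed in capitals. The gene counts do not separate the arms of a hairpin, so each value below is for the whole gene.
mmu-miR-142a-5p: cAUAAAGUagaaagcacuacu
mmu-miR-142a-3p: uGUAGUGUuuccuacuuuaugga
mmu-miR-142b: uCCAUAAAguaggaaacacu
mmu-miR-223-3p: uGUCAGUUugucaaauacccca
mmu-miR-155-5p: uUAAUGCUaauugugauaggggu
mmu-miR-146a-5p: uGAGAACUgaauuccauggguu
mmu-miR-146b-5p: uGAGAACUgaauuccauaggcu
mmu-miR-150-3p: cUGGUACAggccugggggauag
The only seed shared by members is GAGAACU, that of miR-146a-5p and miR-146b-5p, and no further mature microRNA among the 1679 names of the table carries it. Each of the other seeds printed above is found in 1 mature microRNA of that table alone. Over their 22 bases, miR-146a-5p and miR-146b-5p differ by the substitutions G18A and U21C, counted from the 5′ end with the base of miR-146a-5p first, so their first 17 bases are identical. A read that covers only those 17 bases fits both genes, and the tables count such multiply placed reads to no gene. The hairpins of Mir223 and Mir155 share no stretch of 17 bases, on either strand, with any of the 1005 hairpin symbols of the table other than their own. For Mir150 only the 3p sequence was found there, and its hairpin was not searched. Whether reads of Mir150 fit other genes was therefore not tested. The 20 bases of miR-142b are the reverse complement of bases within miR-142a-3p, from its base 4 on, which places these mature microRNAs on opposite strands of the same DNA.

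In GENCODE M21 on GRCm38 (mm10), 4 of the 6 loci lie within a longer gene of the same strand. Mir142 occupies chr11:87756864-87756927 of the plus strand, in an intron of the long noncoding RNA gene Mir142hg. Mir142b (ENSMUSG00000065420.2) covers that interval on the minus strand, at chr11:87756841-87756955. Mir223 (ENSMUSG00000076066.1) is at chrX:96242817-96242926, plus strand, overlapping an exon of the noncoding gene F630028O10Rik. Mir155 (ENSMUSG00000065397.1) is at chr16:84714140-84714204, plus strand, and overlaps an exon of its host transcript Mir155hg. Mir146b (ENSMUSG00000070127.2) is at chr19:46342762-46342870, plus strand, in an intron of the protein-coding gene Mfsd13a. Mir146 (ENSMUSG00000065601.1), at chr11:43374397-43374461 on the minus strand, and Mir150 (ENSMUSG00000065495.1), at chr7:45121757-45121821 on the plus strand, overlap no other annotated gene.

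The libraries held 4478599 and 5279908 sense counts over all microRNA genes, in replicates 1 and 2. CPM here means counts per 1000000 sense counts of a library, and intervals are exact 95% intervals that cover counting error only, since no molecular identifiers are stated. The limit that a count of 0 allows, 3 counts, was 0.670 CPM for replicate 1 and 0.568 CPM for replicate 2. The labelled tissue was matched by the heart muscle microRNAs Mir208a, Mir208b and Mir499, which lie in myosin heavy chain genes and summed to 62941 ± 1438 CPM (SD, n = 2). Mir1a-1, Mir133a-1 and Mir133a-2, of other muscle microRNA families, were low, at 2.46, 0.893 and 0.447 CPM in replicate 1. In replicate 2 they had 4.73, 2.46 and 1.52 CPM. Copies of a microRNA can share reads that are in no gene's count, so these low levels are uncertain. Multiply placed reads were 27.1% and 25.3% of each library's reads. Between the libraries, the red blood cell microRNA Mir451a stood 2.17-fold higher in replicate 2 and the liver microRNA Mir122 at 0.179 of its replicate 1 level. The part of blood or liver RNA in the results below was not tested.

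Mir142, the microRNA shared by most blood lineages, was the most abundant of the 6 genes in both libraries. It had 4901 counts (1094 CPM, interval 1064 to 1125) in replicate 1 and 4951 counts (938 CPM, interval 912 to 964) in replicate 2, a mean of 1016 ± 111 CPM (SD, n = 2). Replicate 1 was the higher of these libraries, and their counting intervals did not overlap. All of these reads lay opposite to Mir142b, whose own strand held 0 counts in both libraries, which allows up to 0.670 and 0.568 CPM. Mir142 was therefore measured without any detectable share from miR-142b at this depth. Its row stood in place 7 by antisense level among 17 rows with more than 3 antisense counts in both libraries, and 8 of those 17 rows had 0 sense counts. Its reads made up 2.26% and 2.16% of all antisense counts in replicates 1 and 2.

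The myeloid Mir223 and the activation-linked Mir155 formed the next level, nearly equal to each other. Mir223 had 743 counts (166 CPM, interval 154 to 178) in replicate 1 and 818 counts (155 CPM, interval 144 to 166) in replicate 2, a mean of 160 ± 7.76 CPM (SD, n = 2). The intervals of Mir223 overlapped between the libraries. Mir155 had 645 counts (144 CPM, interval 133 to 156) in replicate 1 and 884 counts (167 CPM, interval 157 to 179) in replicate 2, a mean of 156 ± 16.6 CPM (SD, n = 2). Mir155 was thus the higher in replicate 2, without overlap of its intervals, and Mir142 the higher in replicate 1.

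Mir146 and Mir150 were scarce but above the limit of a count of 0 in both libraries. Mir146, the negative regulator of NF-kB signalling, had 62 counts (13.8 CPM, interval 10.6 to 17.7) and 80 counts (15.2 CPM, interval 12.0 to 18.9), a mean of 14.5 ± 0.925 CPM (SD, n = 2). Mir150, the lymphocyte microRNA, had 34 counts (7.59 CPM, interval 5.26 to 10.6) and 45 sense counts (8.52 CPM, interval 6.22 to 11.4), a mean of 8.06 ± 0.658 CPM (SD, n = 2). For both genes the libraries' intervals overlapped over most of their width. Mir150 also had 1 antisense count in replicate 2, and Mir223, Mir155, Mir146 and Mir146b had 0 antisense counts in both libraries.

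Mir146b lay below the level of 3 counts. It had 2 counts in each library, or 0.447 CPM (interval 0.0541 to 1.61) and 0.379 CPM (interval 0.0459 to 1.37), so its level was known only to within these wide intervals. Among reads of miR-146b-5p, those that carry G18A or U21C can be told from miR-146a-5p. The 3p sequences of these genes, miR-146a-3p and miR-146b-3p, are unlike. Reads that fit both genes were counted to neither.

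**Figure D1:**
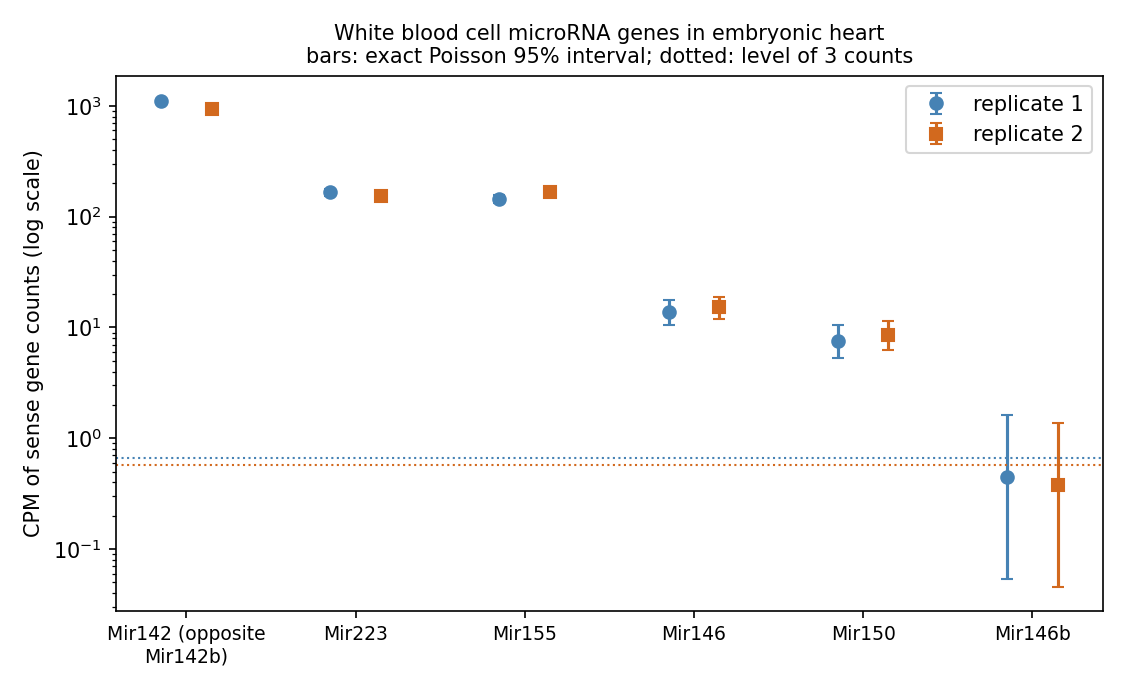
CPM (log axis) of the 6 white blood cell microRNA genes in each library, from antisense counts of Mir142b for Mir142 and sense counts for the others. Bars are exact Poisson 95% intervals (smaller than the symbol for the most abundant genes), and dotted lines mark the level of 3 counts. Mir142 stands highest at 1094 and 938 CPM, Mir223 and Mir155 between 144 and 167 CPM, Mir146 and Mir150 between 7.59 and 15.2 CPM, and Mir146b below the dotted lines.

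The 6 genes together took 1426 and 1284 CPM in replicates 1 and 2, a mean of 0.136% ± 0.0100 (SD, n = 2) relative to the sense counts. The reads of Mir142 are not among those sense counts. The other 5 genes made up 0.0332% and 0.0346% of them. Of the sum over all 6 genes, Mir142 supplied 76.7% and 73.0%, Mir223 11.6% and 12.1%, and Mir155 10.1% and 13.0%. Mir146, Mir150 and Mir146b added 0.971%, 0.532% and 0.0313% of the sum in replicate 1. In tissue from whole hearts, fewer cells of a type and less RNA per cell cannot be told apart, which holds for every level given here.

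Among the 713 genes with a count in either library, ordered by mean level with the sense counts of all other genes, Mir142 took place 79, Mir223 place 157 and Mir155 place 158. Mir146 took place 271, Mir150 place 301 and Mir146b place 530, a place it shared with 6 other genes of the same counts. Thus 88.9% of these genes lay below Mir142, 78.0% below Mir223, 62.0% below Mir146 and 57.8% below Mir150. Antisense counts of other rows were left out of this order, and by antisense level Mir142 was only in place 7. With those counts included, Mir142 would take a lower place than 79. The genes nearest to each member were found by the distance of their log2(CPM + 1) values over the 2 libraries, among 587 genes with a count in both. Nearest to Mir142 were Mir181a-1 (990 CPM, distance 0.11), Mir433 (934 CPM, distance 0.18) and Mir467d (957 CPM, distance 0.18). Mir223 was closest to Mir31 (161 CPM, distance 0.036), followed by Mir1306 (149 CPM, distance 0.15) and Mir152 (148 CPM, distance 0.16). For Mir155 they were Mir190a (155 CPM, distance 0.023), Mir3102 (154 CPM, distance 0.045) and Mir200b (141 CPM, distance 0.20). Mir1198, Mir6540 and Mir8112 lay closest to Mir146, at distances of 0.13, 0.18 and 0.22, and Mir3062, Mir3475 and Mir291b closest to Mir150, at 0.11, 0.12 and 0.12. With 2 libraries such nearness describes a like level and a like difference between libraries, and nothing more.

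**Figure D2:**
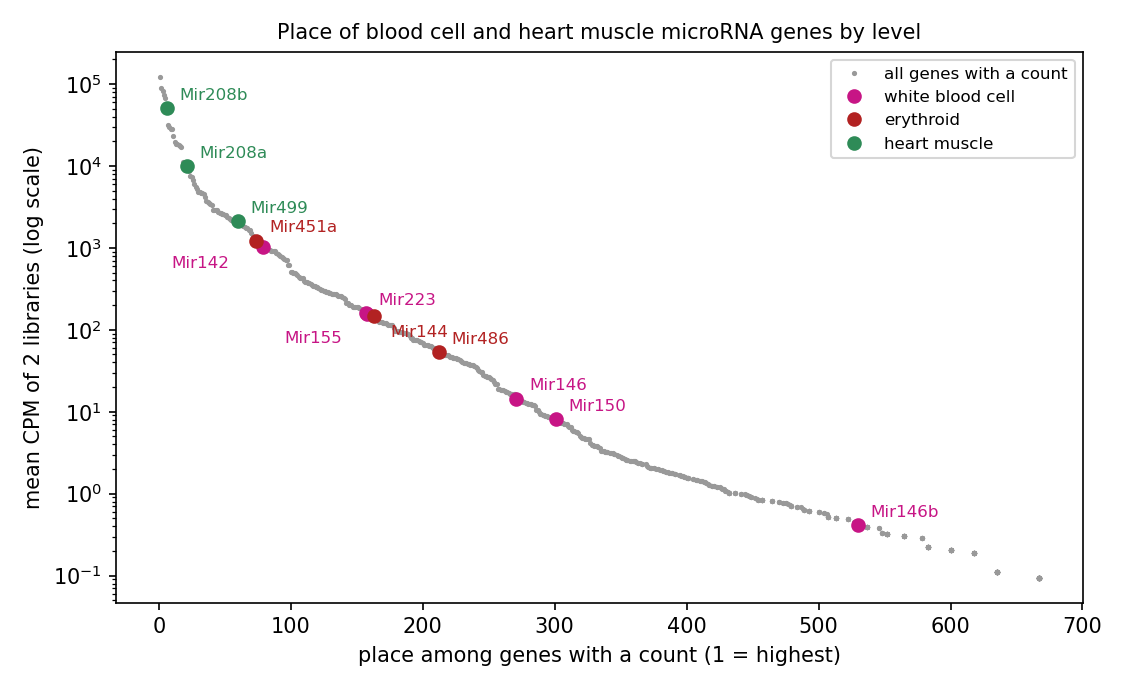
Mean CPM (log axis) against place by level for the 713 genes with a count, tied genes sharing a place, with white blood cell, erythroid and heart muscle microRNA genes marked. Mir142 at place 79 lies beside the erythroid Mir451a, Mir223 and Mir155 beside the erythroid Mir144, and Mir146b in the lowest part of the curve.

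Ratios within a library, which do not depend on its depth, gave the order of the genes. Mir142 exceeded Mir223 by a ratio of 6.60 (interval 6.11 to 7.13) in replicate 1 and 6.05 (interval 5.62 to 6.53) in replicate 2, a mean of 6.32 ± 0.384 (SD, n = 2). Mir155 exceeded Mir146 by a ratio of 10.4 (interval 8.01 to 13.7) and 11.1 (interval 8.78 to 14.1), a mean of 10.7 ± 0.457 (SD, n = 2). Both gaps were many times the spread between replicates. Mir146 exceeded Mir150 by a smaller ratio, 1.82 (interval 1.18 to 2.86) and 1.78 (interval 1.22 to 2.62), a mean of 1.80 ± 0.0324 (SD, n = 2), and its counting error was far wider than the difference between the libraries. Mir150 over Mir146b was 17 (interval 4.36 to 146) and 22.5 (interval 5.88 to 191), wide because Mir146b had 2 counts. Within the Mir146 family, Mir146 over Mir146b was 31.0 (interval 8.23 to 262) and 40.0 (interval 10.7 to 336).

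Mir223 and Mir155 were the only neighbours in the order that did not differ beyond their spread. Mir223 over Mir155 was 1.15 (interval 1.04 to 1.28) in replicate 1 and 0.925 (interval 0.840 to 1.02) in replicate 2, a mean of 1.04 ± 0.160 (SD, n = 2), so the order of these genes turned between the libraries. Of the 15 pairs among the 6 genes, the other 14 kept 1 order in both libraries, with intervals above 1 in each. In 2 of the 15 pairs, Mir223 over Mir155 and Mir142 over Mir155, the intervals of the libraries did not overlap. Mir142 over Mir155 was 7.60 (interval 7.00 to 8.26) in replicate 1 and 5.60 (interval 5.21 to 6.02) in replicate 2. The share over all pairs of genes was not computed. Outside the 6, ratios between Mir142 and Mir451a, Mir126a, Mir208b, Mir208a, Mir499, Mir143 or Mir145a also lacked overlap. Among the outside genes compared, only the ratio with Mir144 had overlapping intervals. For single genes, the interval of replicate 2 over replicate 1 excluded 1 in 35.7% of 445 genes.

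**Figure D3:**
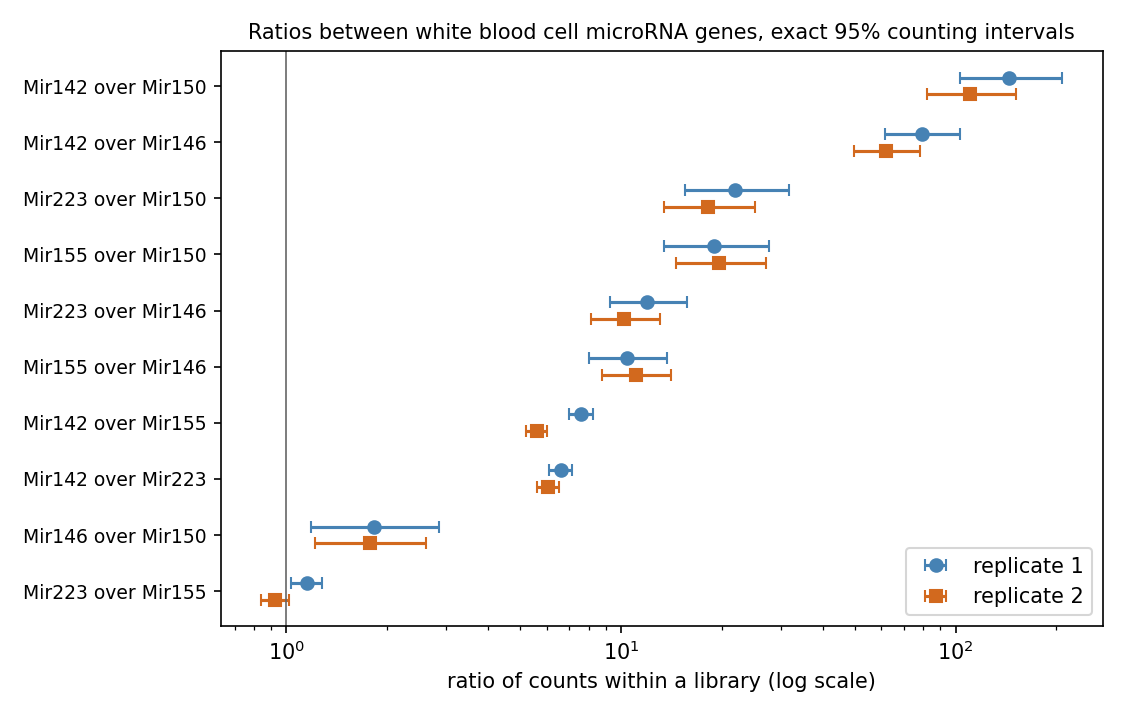
Ratio of counts within a library (log axis) for the 10 pairs without Mir146b, with exact 95% counting intervals and a line at a ratio of 1. Mir223 over Mir155 falls on both sides of the line, at 1.15 and 0.925, and Mir142 over Mir155 is the pair with the widest gap between the libraries' intervals, at 7.60 and 5.60.

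Between the libraries no member with at least 10 counts in total differed by 2-fold. Replicate 2 over replicate 1 was 0.857 for Mir142 (interval 0.824 to 0.892), 0.934 for Mir223 (interval 0.845 to 1.03) and 1.16 for Mir155 (interval 1.05 to 1.29). It was 1.09 for Mir146 (interval 0.776 to 1.55) and 1.12 for Mir150 (interval 0.703 to 1.81). No fold is given for Mir146b, which had 2 counts in each. Of the 5 members with at least 10 counts in total, 0 differed by 2-fold or more on the log2(CPM + 1) scale, against 7 of 445 genes (1.57%) at that depth. The counting interval excluded a ratio of 1 for 2 of the 5, Mir142 and Mir155, and for 159 of the 445 genes (35.7%), so this count was near the background. The median absolute difference was 0.15 log2 units over the 5 members and 0.17 over the 445 genes, and the median signed difference was 0.12 and −0.0049. Members lay in both directions, 3 higher and 2 lower in replicate 2, against 221 and 224 of all genes. No p-value is given, because 1 library stood against 1 of the same group, and 2 libraries cannot give an exact two-sided p below 0.5.

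**Figure D4:**
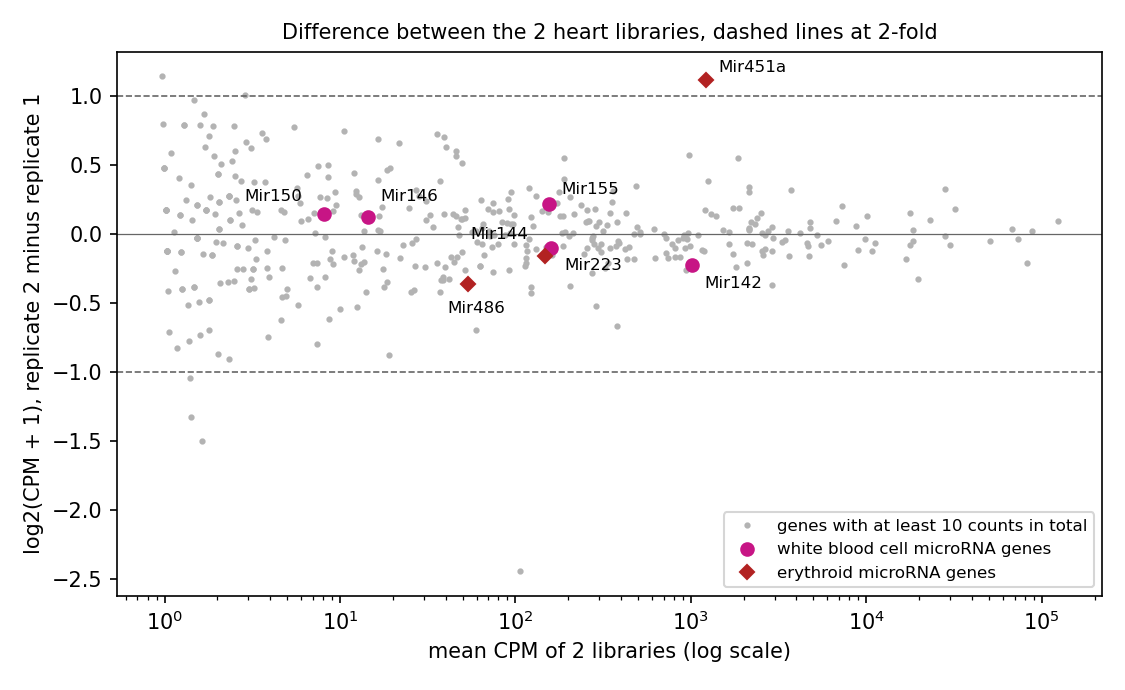
Difference in log2(CPM + 1), replicate 2 minus replicate 1, against mean CPM (log axis) for 445 genes with at least 10 counts in total, with dashed lines at 2-fold. The 5 members plotted lie between −0.22 and 0.22, and the erythroid Mir451a lies above the upper line at 1.12.

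MicroRNAs of red blood cells did not differ between the libraries in 1 direction. Mir451a, a microRNA of maturing red cells, had 770 CPM in replicate 1 and 1671 CPM in replicate 2. Its cluster neighbour Mir144 had 156 and 140 CPM, and Mir486 had 60.3 and 46.8 CPM. Replicate 2 over replicate 1 was therefore 2.17 for Mir451a, 0.897 for Mir144 (interval 0.808 to 0.996) and 0.776 for Mir486 (interval 0.650 to 0.926), beside 0.857 for Mir142. Mir486b, also on the erythroid list, was not measured here. The erythroid genes Mir451a, Mir144 and Mir486 summed to 986 CPM in replicate 1, below the 1426 CPM of the white blood cell genes. In replicate 2 they summed to 1858 CPM, above the 1284 CPM of the white blood cell genes. Mir451a over Mir142 turned from 0.703 (interval 0.673 to 0.735) to 1.78 (interval 1.72 to 1.85). Mir142 over Mir144 was more alike, at 7.02 (interval 6.48 to 7.61) and 6.71 (interval 6.21 to 7.26). Which of these genes tracks the amount of blood in a heart was not tested.

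The lists of heart muscle (Mir208a, Mir208b and Mir499), endothelial and smooth muscle microRNAs do not hold Mir1a-1, Mir133a-1 or Mir133a-2. Mir142 lay below every gene of these lists by its mean level, by margins that ranged widely. The myosin-linked Mir208b exceeded it by a ratio of 47.4 and 53.3 in replicates 1 and 2, a mean of 50.3 ± 4.20 (SD, n = 2). The endothelial Mir126a exceeded it by a ratio of 61.2 and 73.3, a mean of 67.3 ± 8.55 (SD, n = 2). The smooth muscle Mir143 was 87.6 ± 10.6 times and the myosin-linked Mir208a 9.78 ± 0.909 times as high (both SD, n = 2). Mir499 was nearer, at 2.12 ± 0.265 times the level of Mir142 (SD, n = 2). Mir145a, the neighbour of Mir143, stood at a ratio of 1.03 (interval 0.992 to 1.07) in replicate 1 and 1.36 (interval 1.31 to 1.41) in replicate 2, so in replicate 1 it could not be told from Mir142 by counting error. Replicate 2 over replicate 1 was 1.03 for Mir126a and 0.964 for Mir208b, beside 0.857 for Mir142.

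A further list held 26 microRNA genes that are linked to blood cells but are also used by other tissues. Of these, 21 reached 10 CPM in both libraries, and the median level of all 26 was 323 CPM. On the log2(CPM + 1) scale, 0 of the 24 genes with at least 10 counts in total differed by 2-fold or more between the libraries, near the background of 1.57% of 445 genes. That scale understates differences of low genes, such as Mir9-3, which had 9 and 4 counts, a ratio of 0.377 (interval 0.0848 to 1.35). Mir21a, which is induced in many activated cells and abundant in fibroblasts, was the highest at 28206 ± 209 CPM (SD, n = 2). Above Mir142 stood also Mir99b, Mir23a, Mir652, Mir342, Mirlet7e, Mir125a and Mir181d, from 17829 CPM for Mir99b to 2140 CPM for Mir181d. Mir342, which lies in the gene Evl and is abundant in lymphocytes, stood at 3310 and 4121 CPM, or 3715 ± 574 CPM (SD, n = 2), far above the lymphocyte microRNA Mir150.

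Mir181a-1, a regulator of T cell receptor sensitivity, stood at 990 ± 40.6 CPM (SD, n = 2), close to Mir142. It was followed by Mir181b-2 at 976 ± 272 CPM and Mir125b-2 at 616 ± 10.1 CPM (both SD, n = 2). Between 204 and 347 CPM lay Mir27a, Mir24-2, Mir125b-1, Mir196b and Mir181a-2. Mir34a stood at 191 CPM, Mir132 at 90.0 CPM, Mir363 at 62.5 CPM, Mir181b-1 at 21.6 CPM and Mir212 at 12.3 CPM. Copies with the same stem, such as Mir181a-1 and Mir181a-2, can share reads that are in no gene's count, so their levels are uncertain.

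A pair of microRNAs named at any level for their link to macrophages, Mir511 and Mir147, stood below Mir150. Mir511, which lies in the mannose receptor gene Mrc1 and is known from tissue macrophages, had 8 and 5 counts, or 1.37 ± 0.593 CPM (SD, n = 2). Mir147, induced in macrophages by Toll-like receptor signals, had 19 and 22 counts, or 4.20 ± 0.0535 CPM (SD, n = 2). Mir223, the myeloid member, stood at 160 CPM in the same libraries, and genes of the list that macrophages also use, such as Mir125a at 2512 CPM and Mir21a, stood far higher.

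**Figure D5:**
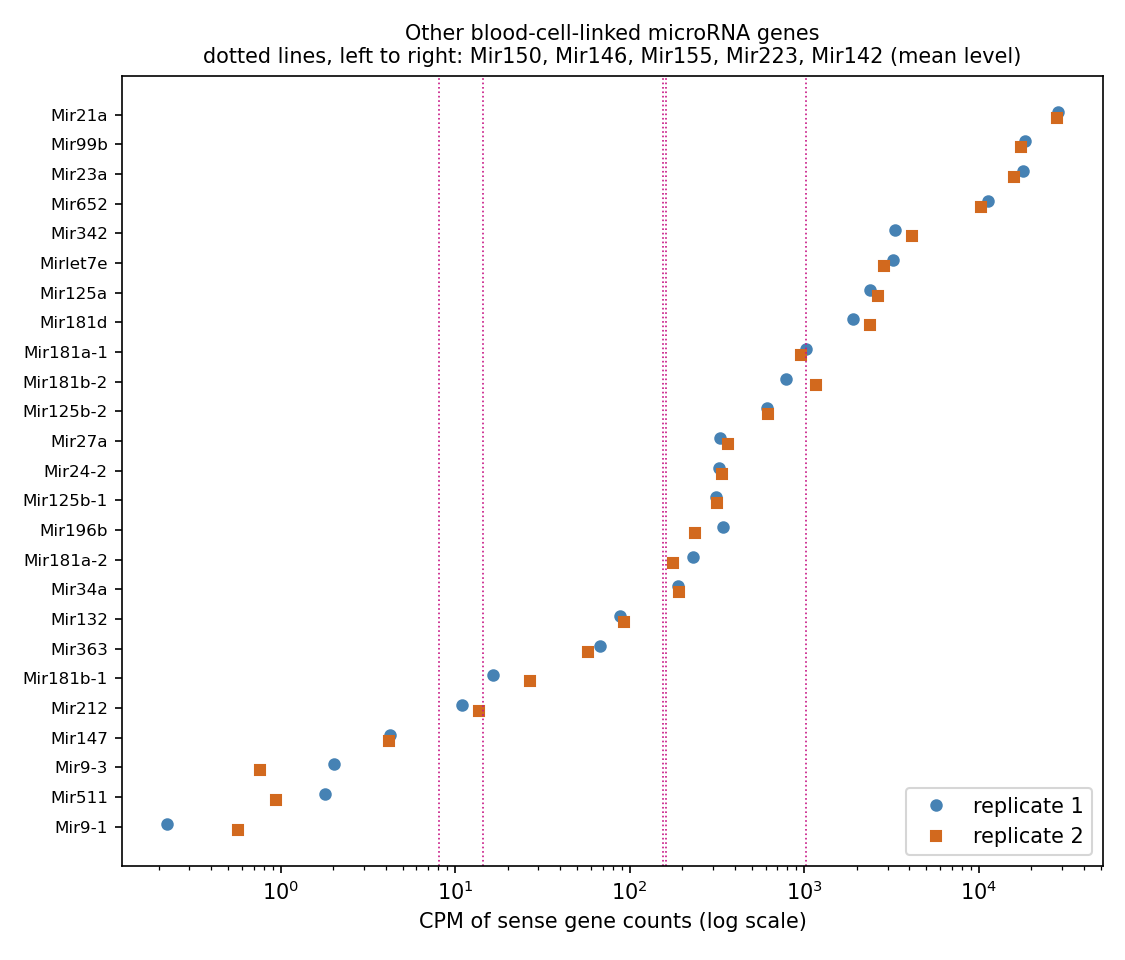
CPM (log axis) in each library of 25 other blood-cell-linked microRNA genes with a count, Mirlet7e and Mir9-1 from the strand opposite to the rows Gm25927 and Gm25641, with dotted lines at the mean levels of Mir150, Mir146, Mir155, Mir223 and Mir142. Mir342 lies above the line of Mir142 at 3310 and 4121 CPM, and Mir511 and Mir147 lie left of the line of Mir150.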

How the data were processed

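Small RNA libraries of 2 biological replicates of mouse heart were used. Each library has 1 deposited table of raw read counts for microRNA genes. The descriptions deposited beside the tables name assembly mm10 and annotation M4. Neither aligner nor counting tool is given in the sources used here. The 3 count columns carry no names. With 4 rows that name no gene, kept out of library sizes, all 3 sum to the same total, and they were read as counts without regard to strand, sense and antisense. CPM was computed over sense counts. A pseudocount of 1 CPM preceded log2. Of 1973 gene rows, 1894 matched GENCODE M21, and RefSeq sequences were matched by symbol for all 6 members. The steps used Python 3.11.15, numpy 2.4.6, pandas 2.3.3, scipy 1.17.1 and matplotlib 3.10.9. TMM factors (edgeR 4.0.16) and size factors (DESeq2 1.42.0, R 4.3.3) served as alternatives for scaling. On simulated counts of 445 genes, all 133 genes with a 4-fold change and a total of at least 100 counts in the data passed the 2-fold rule, as did 0 of 154 unchanged ones. The simulated counts held counting error only, so they cannot show how the rule fares with the spread between real libraries. Intervals were Poisson for counts and Clopper-Pearson for ratios.

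The members and lists were chosen with earlier results of these data known. Named were the members, the 3 genes nearest to each except Mir146b, and the heart muscle and erythroid lists. Of the further blood list, the rule named the genes at 10 CPM or more in both libraries with Mir511, Mir147 and Mir342. Mir122, Mir126a, Mir143, Mir145a, Mir9-1, Mir9-3, Mir1a-1, Mir133a-1 and Mir133a-2 were named outside this rule, with their values known.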

Additional observations from a re-analysis of the deposited data

How the results depend on the processing

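The summed level of the 6 genes was 1355 CPM. It was 666 CPM with all reads as the denominator, which lowers every level by the same factor within a library, and 339 CPM with sense counts for all 6 genes, which leaves out the reads of Mir142. With replicate 1 or replicate 2 left out, the sum lay between 1284 and 1426 CPM. TMM scaling, DESeq2 size factors, counts without regard to strand and their sum as denominator moved the sum and each level by less than the spread between replicates. The order of the 6 levels was the same in those settings, and it turned for Mir223 and Mir155 without replicate 1, where their ratio was 0.925, against 1.15 without replicate 2. The number of members beyond 2-fold was 0 under both scalings, a pseudocount of 0.5 CPM and counts without regard to strand, and the 5 members with at least 10 counts in total kept their direction in each. The share of genes below a member depends on the filter: for Mir150 it was 57.8% of genes with a count, 32.4% of genes with at least 10 counts and 84.7% of all rows. Depth limited Mir146b most, with 2 counts in each library. No paired analysis was possible because the series holds 1 group.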
